A study of Homo sapiens with 60 samples.

Results

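Cells of the lung cancer line PC9 that had lived through 21 days of osimertinib were compared with PC9 cells after 24 h of the drug, to show what drug tolerance adds to acute EGFR inhibition. The members were chosen by their labels: the 3 libraries of the PC9 arm called DTP (drug-tolerant persister) and the 3 libraries of the PC9 arm called acute, 6 of the 60 RNA-Seq libraries of the series. PC9 is an established line of EGFR-mutant non-small cell lung cancer, and both groups received osimertinib, an EGFR inhibitor, at 500 nM. The line is taken from the sample labels, since the growth protocol of every sample names NCI-H1975 only. The 21-day group took the drug for that whole time. The 24 h group came from parental cells that had been kept drug-free for 21 days and were then given the drug for 24 h. The whole study holds 4 EGFR-mutant lines in 5 arms of biological triplicates: DMSO, the solvent control, osimertinib for 24 h, osimertinib for 21 days, and 21 days on the drug followed by drug-free culture, briefly or for longer. In PC9 the short washout took 24 h and the long washout 7 days. The groups of interest differ in their time on the drug, and harvest dates are not given in the labels.

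EGFR is a receptor kinase at the cell surface whose mutant forms drive growth through the RAS, RAF, MEK and ERK kinases and through PI3K and AKT. Blocking it shuts off this output within hours and kills many cells, and the few that live on without a resistance mutation are called persisters, which divide slowly or not at all. Persisters are described as leaning on other receptor kinases, on YAP with its TEAD partners, on survival proteins of the BCL2 family and on changes of chromatin and metabolism.

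A library of the 24 h group held 39.0 M, 46.2 M and 40.2 M estimated counts, and a library of the 21-day group held 34.7 M, 40.2 M and 45.1 M. Depth therefore overlapped between the groups. The 10 genes with the most counts took 9.70%, 10.4% and 9.45% of the counts at 24 h and 7.32%, 8.12% and 7.61% at 21 days. Genes of the mitochondrial genome took 8.22%, 9.01% and 7.79% at 24 h and 6.22%, 7.16% and 6.62% at 21 days. Both shares were lower in each of the 3 libraries at 21 days than in each of the 3 at 24 h, and their part in the results below was not tested. Levels below are CPM, the counts of a gene after each library was scaled to a common total with edgeR's TMM factors over the 15 PC9 libraries, and are given for replicates 1, 2 and 3 in that order.

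Markers of epithelium were present in both groups: 6 of 6 passed the filter on low counts, with KRT8 the most abundant, and they summed to 17940.1, 18949.8 and 19359 CPM at 24 h and to 10512, 10146 and 10442 CPM at 21 days. Lung markers, 3 of 3 tested and led by NAPSA, summed to 3.34, 3.69 and 3.16 CPM at 24 h and 4.67, 6.78 and 6.76 CPM at 21 days. Fibroblast markers, 3 of 9 tested and led by COL1A1, summed to 38.9, 36.7 and 41.7 CPM at 24 h and 33.7, 32.7 and 42.0 CPM at 21 days, with THY1 under 3 counts in total. Blood cell markers, 1 of 9 tested, summed to 3.10, 3.83 and 1.59 CPM at 24 h and 3.34, 2.95 and 4.57 CPM at 21 days. CSF1R was the most abundant of them, and CD3E, MS4A1 and HBB, markers of T cells, B cells and red cells, were under 3 counts. Endothelial markers, 5 of 7 tested and led by PECAM1, summed to 25.4, 31.2 and 28.9 CPM at 24 h and 17.9, 15.97 and 16.8 CPM at 21 days. The epithelial sums were thus far above those of the other marker lists, of which the lung and blood markers had the lowest.

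Between 24 h and 21 days of osimertinib, many interferon-stimulated genes, DNA replication genes and targets of the stress factor ATF4 rose. The medians of the replication and ATF4 lists still lay below the DMSO mean at 21 days. Ribosomal protein genes and the keratins KRT8 and KRT18 fell, while the median of the epithelial list stayed above the DMSO mean at 21 days. Most of the respiratory chain genes tested were lower as well, though 9 of 30 were in log2 TPM. Of 14467 genes tested, 5760 (39.8%) differed at an adjusted p under 0.05 by edgeR's quasi-likelihood test. Of these, 2782 (19.2% of the genes tested) were higher at 21 days and 2978 (20.6%) were lower. A change of at least 2-fold was seen for 1295 genes (8.95%), and here the directions were unequal, with 905 higher and 390 lower. The groups did not overlap for 7664 genes (52.98%). Genes named below as the largest changes, among all genes or within a list, had to be called, average at least 1 CPM and show no overlap. Their lack of overlap was thus fixed by the naming rule and adds no support. The libraries are bulk, so that fewer cells of a type and less RNA per cell cannot be told apart.

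The balance between directions depended on the scaling. The median log2 fold change of all genes tested was 0.01 with TMM, 0.15 when libraries were scaled by their total alone and 0.28 in the deposited log2 TPM. With library totals the calls were 4240 higher and 1900 lower, and in log2 TPM 5960 higher and 1236 lower. Changes of at least 2-fold were then 1166 higher and 287 lower, or 1521 higher and 213 lower. Changes of gene lists are therefore read against the median of all genes, and a list whose own median changes sign with the scaling is named as such. Counts per list stand against the 39.8% of all genes called, with 19.2% higher and 20.6% lower, and were not tested for a difference from them.

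**Figure D1:**
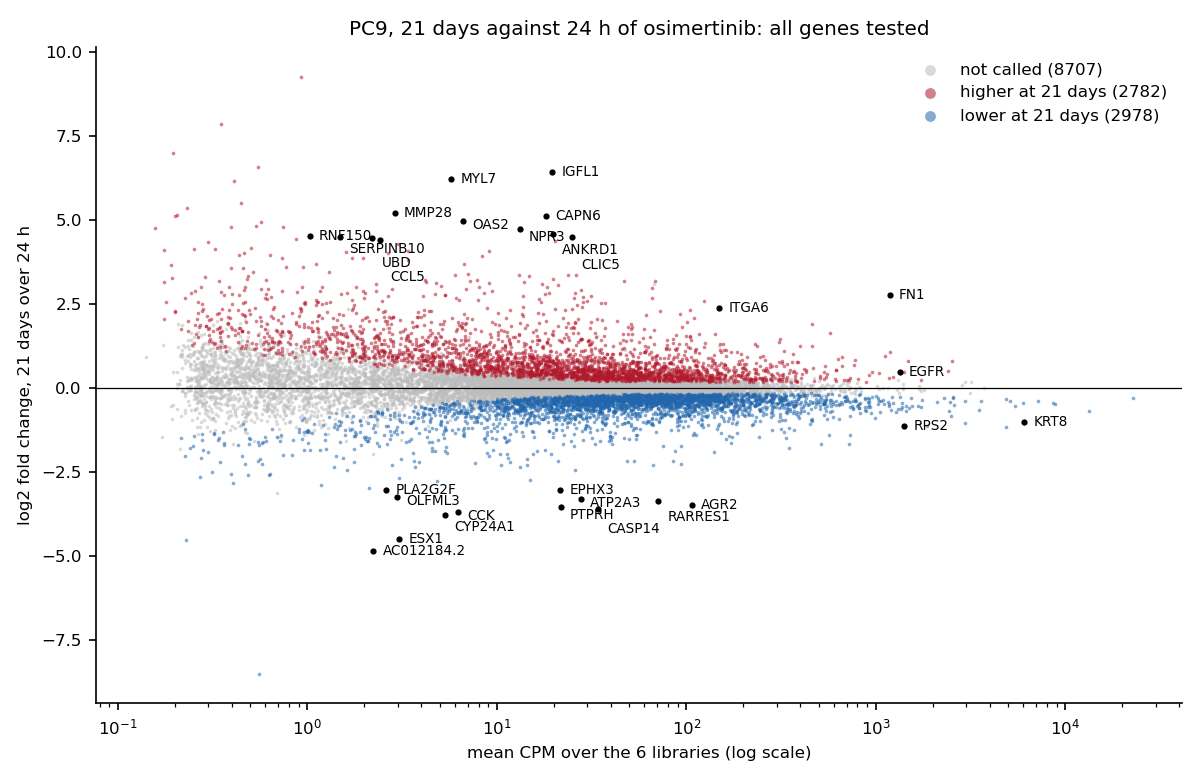
Log2 fold change of 21 days over 24 h of osimertinib in PC9 (y axis) against the mean CPM over the 6 libraries (x axis, log scale), 1 point per gene tested, coloured by whether edgeR called it at an adjusted p under 0.05. Genes described in the text are named in black, and of the genes called 2782 lie above 0 and 2978 below.

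The gene with the largest rise among those named by rule was IGFL1, a small secreted protein of the insulin growth factor-like family. It stood at 0.428, 0.603 and 0.313 CPM at 24 h and at 29.8, 49.6 and 36.4 CPM at 21 days. The groups lay far apart, and the fitted change was 85.1-fold, a log2 fold change of 6.41 (SE 0.28, n = 3 per group, edgeR adjusted p = 4.26e-06). IGFL1 has named pseudogenes, and reads from them may have been counted with it. MYL7, a myosin light chain known from the atrium of the heart, went from 0.134, 0.0928 and 0.235 CPM to 7.82, 12.3 and 13.8 CPM (log2 fold change 6.20, SE 0.36). CAPN6, a calpain without protease activity that binds microtubules, went from 0.910, 1.32 and 0.809 CPM to 25.4, 31.8 and 48.6 CPM (log2 fold change 5.11, SE 0.30). Neither gene showed any overlap between the groups, which the naming rule required.

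MMP28, a secreted metalloprotease, was at 0.268, 0.116 and 0.0783 CPM at 24 h and 4.78, 6.38 and 5.71 CPM at 21 days. Its log2 fold change was 5.19 (SE 0.37) and became 5.81 without acute replicate 1, the highest of the 24 h libraries. NPR3, the clearance receptor for natriuretic peptides, was at 0.482, 0.789 and 1.64 CPM at 24 h and 23.6, 21.7 and 30.97 CPM at 21 days, a log2 fold change of 4.72, or 5.31 without acute replicate 3. CLIC5, a protein of the chloride channel family, rose from 1.55, 2.85 and 1.93 CPM to 46.2, 49.5 and 47.3 CPM with the 21-day libraries close together (log2 fold change 4.49, SE 0.19, adjusted p = 3.82e-06). RNF150, a ring finger protein, and SERPINB10, a serpin, rose by 4.50 and 4.49 on the log2 scale from levels at or under 0.107 and 0.232 CPM at 24 h, and the value for SERPINB10 was 5.38 without acute replicate 2. With at least 10 counts required in each library, MYL7, MMP28, RNF150, SERPINB10, UBD, CCL5, IFI44L and ID4 were not tested. Their fold changes thus rest on few counts at 24 h, and those of AC012184.2 and ESX1, also not tested there, on few counts at 21 days. TAC3, which encodes the neuropeptide neurokinin B, was at 0.749, 1.49 and 0.809 CPM at 24 h and 12.5, 19.6 and 14.7 CPM at 21 days, with no overlap (log2 fold change 3.93, SE 0.28).

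The lowest fitted change among called genes averaging 1 CPM or more was that of AC012184.2, at 3.43, 5.50 and 3.99 CPM at 24 h and 0.193, 0.236 and 0.0211 CPM at 21 days (log2 fold change -4.85). This gene lies over DDX19A and DDX19B on the same strand, so that its reads could belong to them. ESX1, a homeobox transcription factor, went from 6.10, 6.27 and 5.14 CPM to 0.249, 0.331 and 0.190 CPM, without overlap (log2 fold change -4.49, SE 0.27). CYP24A1, the enzyme that breaks down active vitamin D, went from 12.04, 10.7 and 7.12 CPM to 0.525, 0.543 and 1.04 CPM (log2 fold change -3.79, SE 0.32). CCK, the hormone cholecystokinin, went from 14.1, 10.8 and 9.78 CPM to 0.801, 0.638 and 1.20 CPM (log2 fold change -3.69). All 4 of these genes were lower in each 21-day library than in each 24 h library.

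CASP14, a caspase of epidermal differentiation, stood at 79.7, 68.9 and 41.2 CPM at 24 h and 5.99, 3.66 and 5.90 CPM at 21 days, a fall of 12.1-fold. AGR2, a protein disulfide isomerase of secretory cells, stood at 229.5, 170.2 and 191 CPM and 18.01, 16.4 and 17.4 CPM (log2 fold change -3.50, SE 0.12, adjusted p = 2.04e-06). RARRES1, a membrane protein induced by retinoids, stood at 134, 130.3 and 122 CPM and 13.4, 13.6 and 10.4 CPM (log2 fold change -3.37, SE 0.11, adjusted p = 2.04e-06). The spread within each group was small beside these falls. PTPRH, a receptor tyrosine phosphatase, fell by 11.8-fold, ATP2A3, a calcium pump of the endoplasmic reticulum, by 9.88-fold and EPHX3, an epoxide hydrolase, by 8.16-fold. OLFML3, a secreted olfactomedin-like protein, and PLA2G2F, a secreted phospholipase, had log2 fold changes of -3.25 and -3.03, and that of OLFML3 was -4.03 without DTP replicate 1. SEMA6B, a transmembrane semaphorin, was at 2.33, 3.60 and 2.77 CPM at 24 h and 0.939, 0.260 and 0.676 CPM at 21 days (log2 fold change -2.21).

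**Figure D2:**
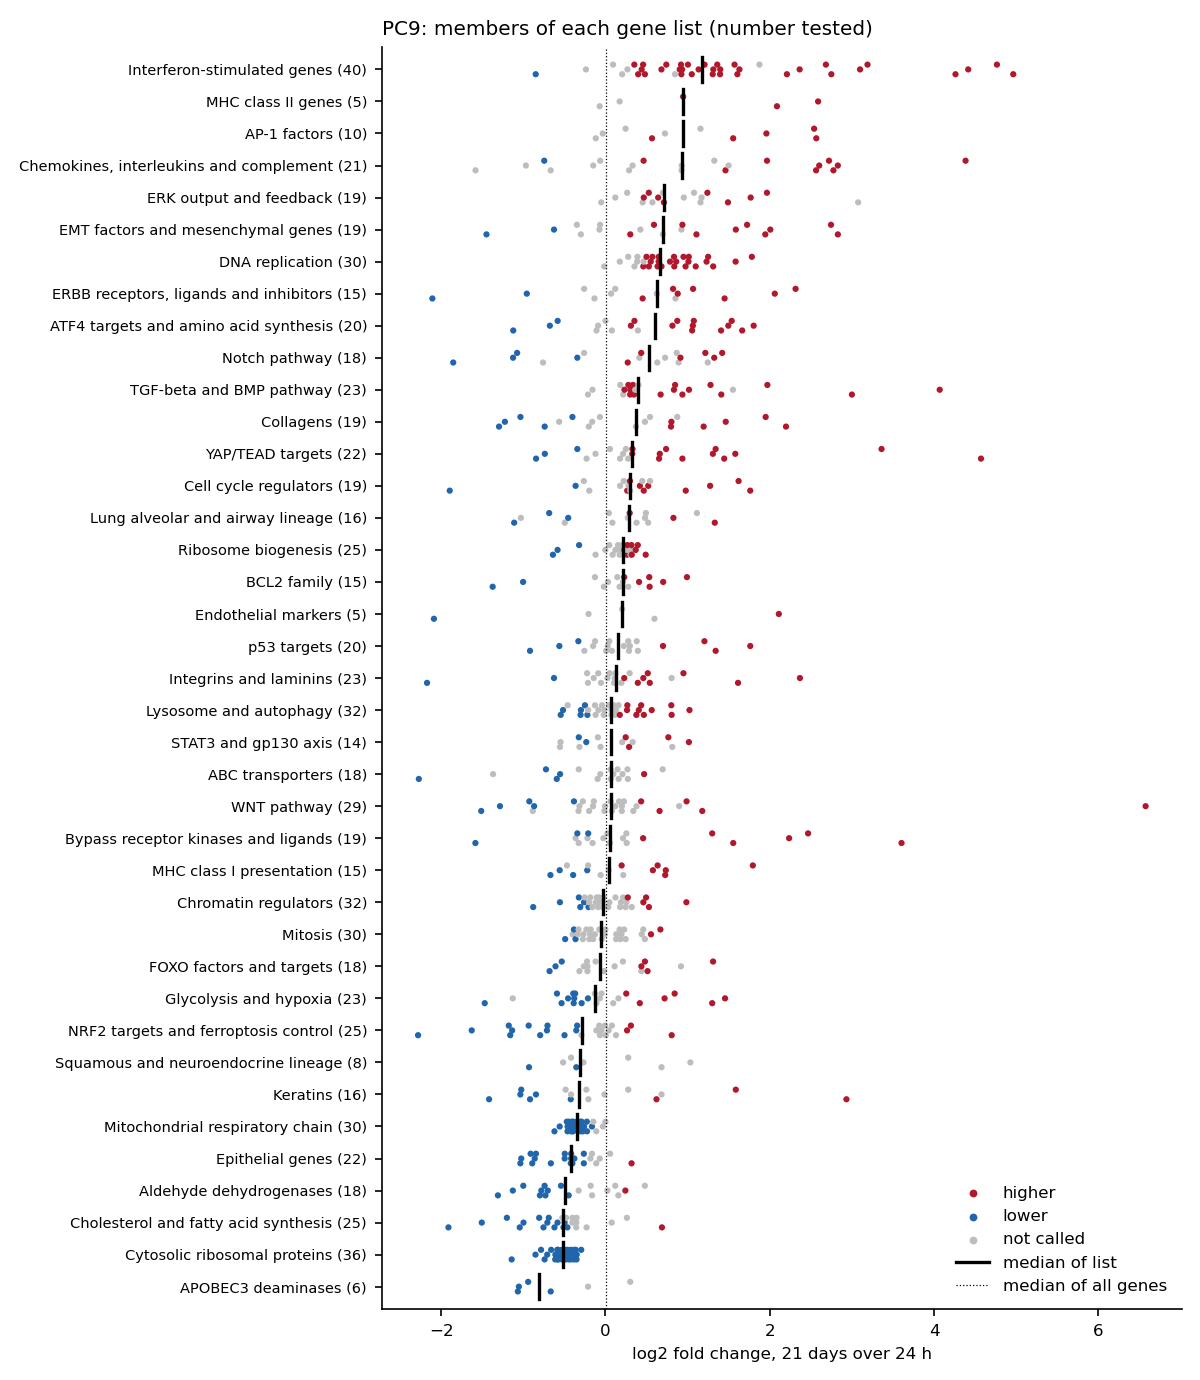
Log2 fold change of 21 days over 24 h of osimertinib in PC9 (x axis) for the members of each gene list that were tested (points, coloured by whether edgeR called them higher, lower or not), with the median of the list (black bar) and of all genes (dotted line). Interferon-stimulated genes have the median 1.17, cytosolic ribosomal proteins -0.51 and APOBEC3 deaminases -0.80.

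Interferon-stimulated genes, which cells switch on against viruses, rose as a broad group. Of 40 tested, 33 were higher, 1 was lower and 6 did not pass the test, and 22 rose at least 2-fold. Their median log2 fold change was 1.17 beside 0.01 for all genes, and it was 1.31 and 1.43 under library totals and log2 TPM, where the median of all genes was 0.15 and 0.28. OAS2, which makes the short adenylate chains that activate RNase L, was at 0.348, 0.487 and 0.391 CPM at 24 h and 15.3, 10.2 and 13.1 CPM at 21 days. Its groups did not overlap, and its rise was 31.2-fold (log2 fold change 4.97, SE 0.24, adjusted p = 6.43e-06). IFI44L was at 0.187, 0.209 and 0.496 CPM at 24 h and 7.24, 4.35 and 5.52 CPM at 21 days (log2 fold change 4.26, SE 0.39). RSAD2, the antiviral enzyme viperin, rose by 4.77 on the log2 scale, and XAF1, which promotes cell death, by 3.10. RSAD2 missed a condition of the naming rule, on the call, the mean CPM or overlap. MX1, a dynamin-like GTPase that blocks viruses, went from 9.42, 9.40 and 11.3 CPM to 32.6, 26.3 and 30.1 CPM (log2 fold change 1.57, adjusted p = 4.71e-05). IRF9, a part of the factor that activates these genes, rose by 1.61 on the log2 scale. The member that fell was GBP2, a guanylate-binding GTPase, at 83.4, 66.7 and 70.7 CPM at 24 h and 39.97, 37.8 and 43.9 CPM at 21 days (log2 fold change -0.85). IFIH1, the RNA sensor MDA5, had a log2 fold change of 1.88 that did not pass the test (adjusted p = 0.0672).

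The promoters of these genes were searched for GAAA, any 2 bases and GAAA again, the core of the interferon-stimulated response element, on both strands. The search used the RefSeq promoter sequences of GRCh38.p14, which run from 250 bases before to 50 bases after a start site. Of 35116 promoters, 3.57% held the letters, and of the 11366 tested genes with a promoter in the table, 3.98% did. In the interferon list 29 of 40 genes matched the table, and 21 of them (72.4%) held the letters. Of those 21, 17 were higher at 21 days, and of the other 8, 7 were higher. The promoter of IFI44L (GRCh38.p14, chr1:78620198-78620497, plus strand) is shown because it holds 2 matches, the first at 164 bases before the start site, and they are in capitals.
IFI44L: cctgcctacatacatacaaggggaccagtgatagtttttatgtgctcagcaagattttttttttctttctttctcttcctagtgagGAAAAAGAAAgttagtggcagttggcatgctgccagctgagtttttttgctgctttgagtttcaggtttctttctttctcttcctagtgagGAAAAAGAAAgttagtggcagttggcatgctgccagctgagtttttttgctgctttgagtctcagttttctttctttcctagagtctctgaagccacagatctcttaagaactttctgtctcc

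Some secreted immune factors were higher too. Of 21 chemokines, interleukins and complement genes tested, 9 were higher and 1 lower, 11 did not pass, and the median was 0.93, or 0.62 without DTP replicate 2. CCL5, a chemokine that draws T cells, was at 0.401, 0.162 and 0.104 CPM at 24 h and 4.94, 4.42 and 4.54 CPM at 21 days. The 21-day libraries lay close together (log2 fold change 4.38, SE 0.40, adjusted p = 0.0001), and the value was 5.08 without acute replicate 1. IL32, a secreted cytokine, was at 1.53, 3.09 and 1.72 CPM at 24 h and 16.6, 12.5 and 16 CPM at 21 days (log2 fold change 2.83). Members of the complement system went both ways: C1S and C1R, the proteases that start the classical pathway, rose by 2.56 and 1.97 on the log2 scale, and their inhibitor SERPING1 by 2.72. C3, the central component, fell by 0.75 on the log2 scale, from 225, 194 and 277 CPM to 151, 124 and 138 CPM. Without acute replicate 2, 3 genes of the list were called lower. UBD, a ubiquitin-like protein that interferon and TNF induce and that stands outside the list, was at 0.107, 0.255 and 0.209 CPM at 24 h and 4.31, 3.45 and 4.88 CPM at 21 days (log2 fold change 4.44).

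Genes of antigen presentation split. Of 15 genes of MHC class I presentation, 6 were higher, 4 lower and 5 did not pass, with a median of 0.04 (-0.06 without acute replicate 1 and 0.12 without acute replicate 3). The counts were 9 and 2 in log2 TPM. HLA-B, a class I heavy chain, was at 53.1, 37.9 and 36.6 CPM at 24 h and 146, 139 and 156 CPM at 21 days, without overlap (log2 fold change 1.79, SE 0.14, adjusted p = 4.71e-05). B2M, the light chain, rose by 0.64 and TAP2, part of the peptide transporter, by 0.73 on the log2 scale. PSMB10, a subunit of the immunoproteasome, fell from 50.4, 50.03 and 46.2 CPM to 35.4, 31.6 and 32.04 CPM, and ERAP2, which trims peptides, fell from 79.5, 71.3 and 80.4 CPM to 50.2, 49.8 and 44.4 CPM. The heavy chains are near-identical in parts of their sequence, so reads could be shared among them. Of 5 class II genes tested, 3 were higher, with 1 each without acute replicate 2 or without DTP replicate 1. CD74, the invariant chain, was at 0.830, 0.510 and 0.783 CPM at 24 h and 3.23, 4.25 and 5.18 CPM at 21 days (log2 fold change 2.59). APOBEC3 genes, interferon-linked cytidine deaminases that edit viral DNA, went the other way: of 6 tested, 4 were lower and none higher, at any of the scalings run, and DESeq2 also called 4 lower. APOBEC3C was at 235, 233 and 237 CPM at 24 h and 115, 115 and 107 CPM at 21 days (log2 fold change -1.05, SE 0.06), and APOBEC3A, which resembles APOBEC3B closely, at 16.6, 13.2 and 15.1 CPM and 9.36, 6.80 and 5.24 CPM, which was not called in the fit of 15 libraries (adjusted p = 0.3).

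EGFR rose and its partner ERBB3 fell, each by less than 2-fold. EGFR was at 1154, 1161 and 1082 CPM at 24 h and 1593, 1479 and 1550.1 CPM at 21 days, higher in each 21-day library (log2 fold change 0.45, SE 0.05, adjusted p = 0.000369). ERBB3, the kinase-poor partner that couples to PI3K, was at 444, 465 and 365 CPM at 24 h and 203, 233 and 216 CPM at 21 days (log2 fold change -0.96, SE 0.10, adjusted p = 0.00015). ERBB2 did not pass the test, with 358, 336 and 344 CPM and 304, 324 and 313 CPM (log2 fold change -0.13, adjusted p = 0.0794), and its value was 0.00 under library totals and 0.13 in log2 TPM. Of 15 ERBB receptors, ligands and inhibitors tested, 7 were higher and 2 lower, or 4 and 1 without DTP replicate 1, and the median was 0.63. In log2 TPM there were 10 higher and 1 lower. The lower members numbered 1 also without acute replicate 1, DTP replicate 2 or DTP replicate 3. The ligands HBEGF and BTC, which bind EGFR and ERBB4, and NRG1, which binds ERBB3, rose by 2.06, 1.07 and 2.31 on the log2 scale. NRG1 missed a condition of the naming rule, on the call, the mean CPM or overlap. HBEGF was at 1.85, 1.44 and 4.85 CPM at 24 h, where acute replicate 3 stood highest, and at 11.4, 8.62 and 13.6 CPM at 21 days, and without acute replicate 3 its log2 fold change was 2.78. AREG, another EGFR ligand, had a log2 fold change of 1.45 (2.34 without acute replicate 3). It was called at an adjusted p of 0.0476 and was not called without any 1 of acute replicates 1 and 2 or of the 3 21-day libraries (adjusted p of 0.128, 0.105, 0.123, 0.0728 and 0.106).

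ERK output, the genes and feedback inhibitors that ERK induces, was partly higher at 21 days, by a number that depends on the libraries and the unit. Of 19 tested, 8 were higher and none lower, and DESeq2 called 9 higher and limma on log2 TPM 15. A replicate block in edgeR called 13 higher, although replicate numbers are not taken as pairs. The median in the fit without a block was 0.71, or 1.09 without acute replicate 3. Acute replicate 3 stood apart from the other 24 h libraries, nearer to the 21-day group, and without it 17 of the 19 were called higher and none lower. Without acute replicate 1 the number was 5, and without acute replicate 2, DTP replicate 1 or DTP replicate 3 it was 4. The median of the list relative to the DMSO mean was -2.72, -3.13 and -1.81 on the log2 scale in the 24 h libraries and -1.57, -1.92 and -1.34 in the 21-day libraries. DUSP6, a phosphatase that switches ERK off, was at 0.535, 0.325 and 1.36 CPM at 24 h and 1.63, 1.04 and 2.26 CPM at 21 days. Its groups overlapped, and its log2 fold change was 1.17 (adjusted p = 0.11) and 1.95 without acute replicate 3 (adjusted p = 0.0157). In log2 TPM it was called as well (adjusted p = 0.0353), as were SPRY4 (0.0493) and FOSL1 (0.0305). The replicate block called DUSP6 (edgeR adjusted p = 0.0284) and FOSL1 (0.022), but not SPRY4 (0.0924). SPRY4, an inhibitor of receptor signalling, had a log2 fold change of 1.08 (adjusted p = 0.222), which was 2.50 without acute replicate 3 (adjusted p = 0.00254). FOSL1, an AP-1 factor, had 1.16 (adjusted p = 0.119) and 2.18 without acute replicate 3 (adjusted p = 0.00206). ETV5, an ETS factor, was called with and without each library, at 2.30, 2.39 and 3.00 CPM at 24 h and 11.02, 5.46 and 13.4 CPM at 21 days (log2 fold change 1.97, SE 0.32). EPHA4, an ephrin receptor, rose by 1.49 and the feedback inhibitor SPRY2 by 1.24 on the log2 scale. CCND1, the cyclin D of the restriction point, was at 342, 319 and 425 CPM at 24 h and 521, 429 and 542 CPM at 21 days (log2 fold change 0.47, adjusted p = 0.0155), with adjusted p of 0.0559 and 0.0588 without DTP replicates 1 and 3. IER3, an early response gene, had a log2 fold change of 1.77 (2.49 without acute replicate 3). It was called at an adjusted p of 0.0168, and not without acute replicate 1, acute replicate 2 or DTP replicate 3 (adjusted p of 0.0511, 0.0506 and 0.0609).

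AP-1 factors, which bind DNA as dimers of FOS and JUN proteins, were 5 higher and none lower of 10 tested. DESeq2 called 4 higher, limma on log2 TPM 8 and the replicate block 7. Their median was 0.94, or 1.53 without acute replicate 3. The count was 3 without acute replicate 1, acute replicate 2 or DTP replicate 3. JUN rose by 1.56 on the log2 scale, from 36.6, 28.7 and 70.2 CPM to 105, 121 and 169 CPM. ATF3, a stress factor of the same family, was at 4.42, 6.40 and 15.3 CPM at 24 h and 34.8, 33.5 and 84.9 CPM at 21 days. The highest values of both groups were those of replicate 3, and the log2 fold change of 2.57 was 3.24 without acute replicate 3 and 1.98 without DTP replicate 3. FOSB was at 10.2, 13.3 and 63.7 CPM at 21 days, and its log2 fold change of 2.54 was 3.32 without acute replicate 3 and 1.22 without DTP replicate 3. Its call (adjusted p = 0.026) was lost without acute replicate 1, acute replicate 2 or DTP replicate 3 (adjusted p of 0.0812, 0.0751 and 0.0933). The letters TGANTCA, an AP-1 motif, occur in 7.71% of all promoters and in 2 of the 11 promoters of the ERK list that matched the table. Neither of these 2 genes was higher, and 4 of the other 9 were.

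Other receptor kinases and their ligands, through which cells can bypass EGFR, were 6 higher and 3 lower of 19 tested, with a median of 0.05. The counts were 8 and 1 under library totals and 9 and 1 in log2 TPM, and the median was -0.02 without acute replicate 1 and 0.20 without acute replicate 3. GAS6, the ligand of AXL, was at 99.4, 94.5 and 76.2 CPM at 24 h and 229, 198 and 234 CPM at 21 days, without overlap (log2 fold change 1.30, SE 0.11). AXL itself was at 114, 129.7 and 113 CPM and 97.1, 83.1 and 99.2 CPM, a log2 fold change of -0.34 whose call was lost under library totals (-0.21), in log2 TPM (-0.08) and in a fit of all 15 PC9 libraries (adjusted p = 0.0603). FGFR3, a fibroblast growth factor receptor, fell from 56.3, 63.2 and 56.6 CPM to 15.99, 21.8 and 20.6 CPM (log2 fold change -1.58, SE 0.12). IGF1, the ligand of IGF1R, was at 0.803, 0.302 and 0.522 CPM at 24 h and 2.57, 3.83 and 2.52 CPM at 21 days (log2 fold change 2.47). IGF1R did not pass the test, at 5.65, 7.80 and 6.73 CPM and 3.78, 4.21 and 9.91 CPM with overlapping groups, and DTP replicate 3 decided its value: the log2 fold change was -0.16 with it and -0.75 without it (adjusted p = 0.0278). FGFR1 did not pass either (log2 fold change 0.02, adjusted p = 0.853), but was called in log2 TPM (0.29). MET, the receptor of hepatocyte growth factor, was at 86.9, 119 and 119 CPM and 161, 137 and 146 CPM (log2 fold change 0.46, adjusted p = 0.0181, and 0.0685 without DTP replicate 1). SRC, a kinase downstream of many receptors, had a log2 fold change of -0.38 (adjusted p = 0.0187), with no call under library totals and log2 TPM or without acute replicate 2, DTP replicate 1 or DTP replicate 2 (adjusted p of 0.0575, 0.0526 and 0.0614).

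YAP/TEAD targets, the output of the Hippo pathway, were 12 higher and 3 lower of 22 tested, with a median of 0.33, and 0.46 and 0.59 under the other scalings. ANKRD1, a nuclear ankyrin repeat protein and classical target, was at 1.28, 1.55 and 1.96 CPM at 24 h and 36.7, 36.7 and 40.2 CPM at 21 days. The libraries within each group lay close together (log2 fold change 4.57, SE 0.15, adjusted p = 2.04e-06). CCN2, a matricellular protein also called CTGF, was at 2.54, 2.53 and 9.00 CPM at 24 h and 38.9, 27.97 and 76.1 CPM at 21 days, again with acute replicate 3 and DTP replicate 3 the highest of their groups. Its log2 fold change was 3.36 (adjusted p = 0.00159) and 4.24 without acute replicate 3. CCN1, its relative, rose by 1.31 and GADD45A by 1.34 on the log2 scale. Members went down as well: NT5E, the ecto-enzyme CD73, went from 117, 128 and 136 CPM to 79.04, 69.5 and 61.8 CPM, and MYOF, a membrane repair protein, from 562, 570.02 and 523 CPM to 351, 319 and 317 CPM. YAP1 itself was at 254, 266 and 263 CPM at 24 h and 205, 198 and 206 CPM at 21 days, a log2 fold change of -0.36 that was not called in log2 TPM (-0.09). WWTR1, which encodes the related TAZ, had a call that depended on the setting, with a log2 fold change of 0.23 at an adjusted p of 0.043, which was 0.026 without acute replicate 1 and 0.074, 0.12, 0.0929, 0.0865 and 0.113 without the other libraries in turn. NF2, an upstream inhibitor of YAP, had 0.38 (adjusted p = 0.0157), and 0.0618 and 0.06 without DTP replicates 1 and 3. In the fit of all 15 PC9 libraries neither WWTR1 (adjusted p = 0.117) nor NF2 (0.0836) was called, and WWTR1 was not called without a filter (0.0622).

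The letters GGAATG, which TEAD factors bind, were searched in the same promoters on both strands. They occur in 14% of all promoters and in 15.2% of those of tested genes. In the YAP/TEAD list 16 of 22 genes matched, and 9 of them (56.2%) held the letters, of which 5 were higher, as were 3 of the other 7. The promoters of ANKRD1 (chr10:90921038-90921337, minus strand) and CCN2 (chr6:131951323-131951622, minus strand), both of GRCh38.p14, are shown since these are the members with the largest rises, and capitals mark the 2 and 3 matches. The first match begins 220 bases before the start site in ANKRD1 and 169 bases before it in CCN2.
ANKRD1: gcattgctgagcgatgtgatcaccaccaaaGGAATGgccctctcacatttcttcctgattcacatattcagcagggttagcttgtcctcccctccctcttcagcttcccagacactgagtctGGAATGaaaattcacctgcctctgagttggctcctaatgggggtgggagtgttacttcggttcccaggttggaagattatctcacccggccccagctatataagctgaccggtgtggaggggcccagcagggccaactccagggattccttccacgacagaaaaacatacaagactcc
CCN2: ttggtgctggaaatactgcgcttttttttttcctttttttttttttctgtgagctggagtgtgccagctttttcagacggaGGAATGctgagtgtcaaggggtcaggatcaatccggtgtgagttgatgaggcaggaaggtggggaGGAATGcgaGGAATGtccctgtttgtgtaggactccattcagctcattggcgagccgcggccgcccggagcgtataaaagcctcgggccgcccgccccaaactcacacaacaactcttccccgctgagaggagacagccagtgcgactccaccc

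Among the 15 BCL2 family members tested, which set the threshold of cell death at the mitochondrion, 6 were higher and 2 lower, or 11 and 2 in log2 TPM. BCL2, an inhibitor of death, was at 2.73, 3.27 and 3.10 CPM at 24 h and 6.52, 6.10 and 5.43 CPM at 21 days (log2 fold change 0.99, SE 0.17), and BCL2L1, which encodes BCL-XL, rose by 0.54 on the log2 scale. BCL2L11, which encodes the death activator BIM, was at 42.2, 48.7 and 50.5 CPM and 61.5, 58.1 and 67.02 CPM, higher in each 21-day library (log2 fold change 0.41, adjusted p = 0.00777, and 0.0672 in the fit of 15 libraries). BMF, another death activator, fell from 209.98, 185 and 235 CPM to 104, 99.8 and 109 CPM (log2 fold change -1.003, SE 0.09). BIK fell by 1.37 on the log2 scale and HRK rose by 0.70, and both promote death. MCL1, an inhibitor of death, did not pass, at 213, 217 and 247 CPM and 222, 242 and 295 CPM (log2 fold change 0.17, adjusted p = 0.231), although library totals and log2 TPM called it higher (0.31 and 0.43).

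Genes of DNA replication rose while genes of mitosis did not move with them. Of 30 replication genes tested, 23 were higher, 7 did not pass and none was lower, and DESeq2 called 26 higher and none lower. The median log2 fold change was 0.67, and without any 1 library between 19 and 27 were called higher. CDC6, which loads the helicase onto origins, was at 12.4, 4.78 and 16.3 CPM at 24 h and 37.2, 39.7 and 37.1 CPM at 21 days. The 24 h libraries were spread, with acute replicate 2 the lowest, and all 3 were under the 21-day libraries (log2 fold change 1.78, SE 0.34, adjusted p = 0.00385). MCM10, another origin factor, rose by 1.58 on the log2 scale, MCM2, a helicase subunit, by 0.97 and PCNA, the sliding clamp, by 0.86. E2F1, the transcription factor that drives such genes, was at 16.2, 10.9 and 21.9 CPM at 24 h and 49.4, 52.7 and 47.4 CPM at 21 days (log2 fold change 1.62, SE 0.21). The letters TTTNGCGC, an E2F motif, occur on either strand in 1.79% of all promoters and 3.48% of those of tested genes. In the replication list 27 of 30 genes matched and 11 (40.7%) held the letters, with 10 of these 11 and 11 of the other 16 higher. In the mitosis list 2 of 25 did. The promoter of CDC6 (GRCh38.p14, chr17:40287629-40287928, plus strand) is shown as that of the member with the largest rise, with its match, 7 bases into the gene, in capitals.
CDC6: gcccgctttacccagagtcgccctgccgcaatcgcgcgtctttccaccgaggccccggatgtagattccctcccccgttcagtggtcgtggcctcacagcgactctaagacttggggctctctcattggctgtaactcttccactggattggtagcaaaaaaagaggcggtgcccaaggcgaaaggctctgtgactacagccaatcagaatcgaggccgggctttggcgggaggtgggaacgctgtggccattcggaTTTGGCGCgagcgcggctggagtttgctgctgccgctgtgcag

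Of 30 mitosis genes tested, 2 were higher, 3 lower and 25 did not pass, so that 16.7% were called against 39.8% of all genes. Their median was -0.06 and changed sign under library totals (0.07) and in log2 TPM (0.22), where the median of all genes was 0.15 and 0.28. There the calls were 5 higher and none lower, or 8 and none, and DESeq2 called 5 higher and 3 lower. Acute replicate 2, the lowest library for replication genes, mattered here too: without it 12 were called lower and the median was -0.21, whereas the median was 0.04 without acute replicate 1 and 0.02 without acute replicate 3. Leaving out any 1 of the other 5 libraries left at most 1 called lower. The genes called higher numbered 4 without acute replicate 3 and 1 without DTP replicate 1, DTP replicate 2 or DTP replicate 3. MKI67, which marks cycling cells, was at 208, 131 and 211 CPM at 24 h and 150.4, 158 and 175 CPM at 21 days, with overlap. Its log2 fold change was -0.18 (adjusted p = 0.413), 0.11 in log2 TPM, and -0.37 without acute replicate 2 (adjusted p = 0.00803). CDK1, the kinase that starts mitosis, was called higher, at 38.5, 24.97 and 38.7 CPM and 55.1, 56.9 and 49.4 CPM (log2 fold change 0.67). The kinases PLK1 and AURKA had log2 fold changes of 0.00 and -0.01 and did not pass (adjusted p = 0.995 and 0.971).

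Of 19 cell cycle regulators tested, 9 were higher and 2 lower, with 4 higher without DTP replicate 3, or 14 and 1 in log2 TPM. CDKN1A, which encodes the CDK inhibitor p21, was at 12.5, 8.84 and 13.8 CPM at 24 h and 34.1, 26.8 and 57.2 CPM at 21 days, without overlap (log2 fold change 1.76, SE 0.28). CCNE2, a cyclin of S phase entry, rose by 1.27 on the log2 scale. Inhibitors of the same family fell: CDKN1C, which encodes p57, from 5.67, 7.33 and 8.45 CPM to 2.15, 1.96 and 1.63 CPM (log2 fold change -1.90) and CDKN1B, which encodes p27, from 97.3, 105 and 89.7 CPM to 70.9, 76.4 and 77.99 CPM (log2 fold change -0.36, not called in log2 TPM at -0.10). Of 20 p53 targets, 4 were higher and 3 lower (35% called, against 39.8% of all genes), with a median of 0.15. The counts were 9 and 2 in log2 TPM. Beside CDKN1A and GADD45A, AEN, a nuclease, rose by 1.21 on the log2 scale, while TP53INP1 fell by 0.92 and TP53I3 by 0.56. The call of TP53INP1 was lost in the fit of 15 libraries (adjusted p = 0.0606).

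Each of the 36 cytosolic ribosomal protein genes tested was lower at 21 days. Their log2 fold changes lay between -1.14 and -0.30 with a median of -0.51, which was -0.38 under library totals, where 36 were called lower, and -0.25 in log2 TPM, where 32 were. RPS2, a protein of the small subunit, was at 1931, 1969.6 and 1956 CPM at 24 h and 928, 871 and 839.6 CPM at 21 days (log2 fold change -1.14, SE 0.05, adjusted p = 6.43e-06). RPS24 was at 931, 976 and 933 CPM and 529.96, 512 and 522 CPM (log2 fold change -0.85, SE 0.05). Neither gene showed overlap, and RPS2 has named pseudogenes. The factors that build ribosomes did not share the fall. Of 25 tested, 8 were higher and 3 lower, and their median was 0.22. The counts were 17 and 3 under library totals and 19 and 2 in log2 TPM. NOP56, a core protein of the nucleolar complexes that modify ribosomal RNA, was at 81.8, 68.3 and 77.4 CPM and 120.3, 106 and 91.5 CPM (log2 fold change 0.49), whereas FBL, the methylase of such complexes, was at 114, 108 and 106 CPM and 80.3, 71.1 and 66.9 CPM (log2 fold change -0.58), and NPM1, a nucleolar chaperone, fell by 0.64 on the log2 scale.

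Genes of the mitochondrial respiratory chain encoded in the nucleus were 26 lower and none higher of 30 tested, with a median of -0.34. DESeq2 called 26 lower and none higher. The median was -0.21 with 15 lower under library totals and -0.08 with 9 lower and 2 higher in log2 TPM. NDUFB8, a subunit of complex I, was at 45.7, 40.03 and 42.2 CPM at 24 h and 28.2, 28.4 and 26.1 CPM at 21 days (log2 fold change -0.62, SE 0.08). Its groups lay apart. Glycolysis and hypoxia genes were mixed, 6 higher and 10 lower of 23 (8 and 5 in log2 TPM), with a median of -0.13 that turned to 0.01 and 0.13 under the other scalings. HK2, the hexokinase that feeds glucose into glycolysis, fell from 62.9, 55.4 and 61.2 CPM to 25.6, 18.4 and 20.5 CPM (log2 fold change -1.47, SE 0.12), PKM, pyruvate kinase, fell by 0.53 and LDHA, lactate dehydrogenase, by 0.39 on the log2 scale. ENO2, an enolase, went from 8.75, 7.47 and 8.71 CPM to 17.6, 25.1 and 18.3 CPM and ANKRD37, a hypoxia gene, from 1.63, 0.882 and 1.90 CPM to 3.04, 4.21 and 4.76 CPM.

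Of 25 genes of cholesterol and fatty acid synthesis tested, 14 were lower, 1 was higher and 10 did not pass, with a median of -0.51, and -0.37 and -0.21 under the other scalings. The lower calls numbered 8 under library totals and 4 in log2 TPM, with 2 higher in each. They were sensitive to the libraries too: 19 were lower without acute replicate 3 (median -0.66), 9 without acute replicate 2, where the median was -0.29, 5 without DTP replicate 1, 5 without DTP replicate 2 and 4 without DTP replicate 3. The genes called higher numbered 3 without acute replicate 2 and 0 without acute replicate 1 or DTP replicate 1. ELOVL6, which lengthens fatty acids, was at 49.8, 32.9 and 39.5 CPM at 24 h and 24.3, 16.4 and 12.3 CPM at 21 days (log2 fold change -1.20). INSIG1, a brake on this pathway, was spread at 24 h, at 43.8, 74.1 and 29.01 CPM against 23.2, 25.02 and 22.7 CPM, and its call (adjusted p = 0.0179) was lost without DTP replicate 1 (0.0585) or DTP replicate 3 (0.0579), in log2 TPM (0.0615) and in the fit of 15 libraries (0.0598). FADS1, a desaturase, was the gene called higher (log2 fold change 0.69), with an adjusted p of 0.0163, 0.0541 without acute replicate 1 and 0.0631 without DTP replicate 1.

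Targets of ATF4, the factor of the amino acid and stress response, were 12 higher and 3 lower of 20 tested, with a median of 0.61, or 0.36 without DTP replicate 3. Against the DMSO mean, the list median was -0.48, -0.78 and -0.46 on the log2 scale at 24 h. At 21 days it was -0.31, -0.46 and -0.11, nearer to DMSO but still below it. The serine synthesis enzymes PHGDH and PSAT1 rose by 1.08 and 1.54 on the log2 scale, and ASNS, asparagine synthetase, went from 7.25, 6.20 and 5.66 CPM to 16.5, 20.4 and 16.7 CPM (log2 fold change 1.496, adjusted p = 0.00011). SLC7A5, an importer of large amino acids, rose by 1.06. VLDLR, a lipoprotein receptor, was at 19.99, 23.9 and 21.9 CPM at 24 h and 84.1, 68.98 and 75.5 CPM at 21 days (log2 fold change 1.80, SE 0.10). DDIT4, an inhibitor of mTORC1, and CTH, which makes cysteine, fell by 1.123 and 0.68 on the log2 scale. The letters TGATGNAA, the core of the element that ATF4 binds, occur in 3.62% of all promoters and in 3 of the 16 promoters of this list that matched, and these 3 genes were higher, as were 6 of the other 13.

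NRF2 targets and ferroptosis genes, which guard against oxidants and lipid peroxides, were 3 higher and 12 lower of 25, with a median of -0.29, or -0.11 without DTP replicate 2. The genes called higher numbered 1 without acute replicate 1 or DTP replicate 1 and 9 in log2 TPM, with 10 lower there. Against the DMSO mean, the list median was 0.53, 0.33 and 0.49 on the log2 scale at 24 h. At 21 days it was 0.06, -0.13 and -0.09, near DMSO. ALOX5, a lipoxygenase, was at 162, 164 and 142 CPM at 24 h and 28.9, 34.8 and 31.96 CPM at 21 days (log2 fold change -2.28, SE 0.09, adjusted p = 3.72e-06). GPX4, the peroxidase that persisters of other models are known to depend on, was at 237, 262 and 257 CPM and 179.6, 168 and 185 CPM, without overlap (log2 fold change -0.50, adjusted p = 0.00059). FTH1, the heavy chain of ferritin, fell by 1.16 and NQO1, a quinone reductase, by 0.71 on the log2 scale, while SRXN1, which repairs peroxiredoxins, rose by 0.81. Aldehyde dehydrogenases were 1 higher and 10 lower of 18 tested, with a median of -0.49. The counts were 3 and 9 under library totals and 4 and 8 in log2 TPM. ALDH2 went from 18.4, 19.3 and 20.3 CPM to 7.98, 6.71 and 8.54 CPM and ALDH3B2 from 61.2, 60.3 and 55 CPM to 25.6, 28.9 and 25.7 CPM, while ALDH3A2 rose by 0.24 on the log2 scale. ALDH1A1, a marker of tumour-initiating cells, had too few counts to be tested. Lysosome and autophagy genes were 11 higher and 6 lower of 32, or 13 and 2 under library totals and 21 and 2 in log2 TPM. PSAP, the precursor of the saposins, was at 1783, 1965 and 1757 CPM at 24 h and 3142, 3061 and 3364 CPM at 21 days (log2 fold change 0.81, SE 0.06), TFEB, the master factor of lysosomes, rose by 1.02, and the cathepsin CTSB fell by 0.52 on the log2 scale.

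Epithelial genes were lower at 21 days than at 24 h on the whole, but not lower than in DMSO. Against the DMSO mean, their median was 0.91, 0.69 and 0.76 on the log2 scale at 24 h. At 21 days it was 0.48, 0.46 and 0.51. Of 22 tested, 16 were lower, 1 was higher and 5 did not pass, and the median of -0.42 was -0.28 under library totals, with 13 lower, and -0.16 in log2 TPM, with 8 lower and 2 higher. KRT8, a keratin of simple epithelium, was at 7854, 8265 and 8347 CPM at 24 h and 4048, 3919 and 3981 CPM at 21 days (log2 fold change -1.03, SE 0.05, adjusted p = 5.92e-06). Its partner KRT18 was at 3713, 3949 and 4229 CPM and 1975.1, 1883 and 1907 CPM (log2 fold change -1.04, SE 0.06). The groups of both lay apart, and both genes have many named pseudogenes. In DMSO the epithelial markers, of which KRT8 was the most abundant, summed to 10816, 10515 and 10463 CPM, near their sums at 21 days. ELF3, an epithelial transcription factor, fell by 0.86 and ST14, the protease matriptase, by 0.91 on the log2 scale. CDH1, which encodes E-cadherin, did not pass the test, with overlapping groups at 682, 707 and 767 CPM and 707, 633 and 643 CPM (log2 fold change -0.11, adjusted p = 0.211), and its value was 0.02 and 0.15 under the other scalings. DSP, a desmosome protein, rose by 0.32 and was not called in the fit of 15 libraries (adjusted p = 0.0587). Of 16 keratins, 3 were higher and 6 lower. KRT15, a basal keratin, fell from 1309, 989.7 and 898 CPM to 379.6, 428 and 383 CPM and KRT4, a keratin of stratified epithelium, rose from 34.9, 19 and 19.99 CPM to 55.6, 66.4 and 98.1 CPM. KRT17 rose by 2.93 on the log2 scale, 2.34 without DTP replicate 3.

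Genes of epithelial-mesenchymal transition, in which cells loosen their contacts, were 10 higher and 2 lower of 19, with 6 higher without DTP replicate 3, 1 lower in log2 TPM, and a median of 0.70. Against the DMSO mean, the list median was -0.74, -0.27 and -0.37 on the log2 scale at 24 h. At 21 days it was 0.35, -0.06 and 0.77, on both sides of DMSO. FN1, fibronectin, was at 303, 259.8 and 364 CPM at 24 h and 1992, 1492 and 2695 CPM at 21 days, far apart (log2 fold change 2.75, SE 0.21, adjusted p = 4.71e-05). The matrix genes LOX, which crosslinks collagen, and TNC, tenascin C, rose by 1.95 and 1.72 on the log2 scale. VIM, vimentin of mesenchymal filaments, was at 6.96, 6.20 and 7.85 CPM and 18.9, 8.67 and 17.4 CPM (log2 fold change 1.11, adjusted p = 0.0111). ZEB1, a repressor of epithelial genes, was near the floor at 0.321, 0.487 and 0.209 CPM and 0.221, 0.402 and 0.338 CPM and did not pass (log2 fold change -0.07, adjusted p = 0.912). TGFBI, an adhesion protein induced by TGF-beta, fell from 276, 236 and 225 CPM to 89.3, 79.5 and 99.6 CPM (log2 fold change -1.45). SPARC, a matrix protein, was called at an adjusted p of 0.0178 and not without DTP replicate 3 (0.0737).

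Collagens were 6 higher and 5 lower of 19 tested, with 3 lower without acute replicate 2, DTP replicate 1 or DTP replicate 2 and under both other scalings. COL5A1 was at 27.3, 44.6 and 27.9 CPM at 24 h and 153, 123 and 179.9 CPM at 21 days (log2 fold change 2.20), and COL4A4, of the basement membrane, rose by 1.95 on the log2 scale. COL6A1 fell from 404, 433 and 498 CPM to 209.6, 181 and 177 CPM (log2 fold change -1.22). Of 23 integrins and laminins, the receptors and ligands of the basement membrane, 8 were higher and 2 lower, with 4 lower without acute replicate 1, or 13 and 1 in log2 TPM. ITGA6, which pairs with ITGB4 to bind laminin, was at 49.4, 37.8 and 58.9 CPM at 24 h and 227, 291 and 231 CPM at 21 days (log2 fold change 2.37, SE 0.16, adjusted p = 2.9e-05). LAMA4, a laminin chain, fell from 153, 120.4 and 143 CPM to 35.6, 26.4 and 29.97 CPM (log2 fold change -2.17, SE 0.13), while LAMA3, another chain, rose from 171, 195 and 157 CPM to 324, 321 and 361 CPM. In all 3 genes the groups did not overlap.

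The TGF-beta and BMP pathway was 16 higher and none lower of 23 tested, and DESeq2 called 16 higher and none lower. Without DTP replicate 3 the count was 8, and the median was 0.40. ID4, an inhibitor of differentiation factors that BMPs induce, was at 0.294, 0.186 and 0.678 CPM at 24 h and 6.63, 6.07 and 6.57 CPM at 21 days (log2 fold change 4.07, SE 0.38), or 4.75 without acute replicate 3. INHBA, which encodes activin A, was at 14.5, 17.1 and 20.95 CPM and 76.9, 47.7 and 80.2 CPM (log2 fold change 1.97). BMP4, a ligand, rose by 1.02 and SMAD6, an inhibitor of BMP signalling, by 1.28 on the log2 scale. Notch pathway genes were 6 higher and 4 lower of 18, with a median of 0.53, or 0.10 without DTP replicate 3. JAG1, a ligand, rose from 16.3, 21.9 and 19.6 CPM to 61.2, 46.1 and 46.8 CPM, and LFNG, which adds sugars to the receptors, fell from 30.7, 26.5 and 27.1 CPM to 6.24, 6.80 and 10.1 CPM, while the receptor NOTCH3 fell by 1.08 on the log2 scale. WNT pathway genes were 5 higher and 5 lower of 29 (34.5% called, against 39.8% of all genes), or 11 and 4 under library totals and 14 and 3 in log2 TPM. The receptor FZD1 rose from 6.96, 6.17 and 7.25 CPM to 13.2, 12.3 and 14.6 CPM and TCF7, a nuclear partner of beta-catenin, fell from 15.7, 11.05 and 15.8 CPM to 6.55, 5.22 and 5.60 CPM.

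The STAT3 and gp130 axis was 4 higher and 2 lower of 14, with 2 higher without acute replicate 1, acute replicate 3, DTP replicate 1 or DTP replicate 2, and 1 lower without DTP replicate 2. Under library totals and in log2 TPM 5 were higher and none lower. LIFR, a cytokine receptor, was at 14.05, 13.2 and 15.9 CPM at 24 h and 27.8, 24.4 and 34.6 CPM at 21 days (log2 fold change 1.02). BCL6, a transcriptional repressor, was at 295, 287 and 200.5 CPM and 176, 239 and 210.4 CPM with overlap and did not pass (log2 fold change -0.32, adjusted p = 0.138), but was called at -0.47 without acute replicate 3 (adjusted p = 0.0165). FOXO factors and targets, active where AKT is not, were 4 higher and 3 lower of 18 (38.9% called, near the 39.8% of all genes), or 5 lower without acute replicate 3 and 7 and 1 in log2 TPM, and their median of -0.07 turned to 0.07 and 0.20 under the other scalings. KLF4, a reprogramming factor, rose from 70.3, 65.2 and 68.3 CPM to 93.6, 96.9 and 98.6 CPM, and FOXO3 fell by 0.53 on the log2 scale.

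Chromatin regulators were 5 higher and 6 lower of 32 tested (34.4% called, against 39.8% of all genes). Without DTP replicate 1 there were 3 and 3, without DTP replicate 3 2 and 4, and the median of -0.03 was 0.10 and 0.23 under the other scalings, with 9 and 2 under library totals and 15 and 2 in log2 TPM. Without acute replicate 1 the median was 0.00 and without DTP replicate 2 0.03. KDM5A, a demethylase known from earlier persister models, did not pass the test, at 76.4, 63.8 and 64.9 CPM and 82.4, 60.6 and 65.7 CPM with overlap (log2 fold change 0.03, adjusted p = 0.85). KDM1A, another demethylase, fell from 202, 192 and 149.6 CPM to 104, 93.6 and 96.02 CPM (log2 fold change -0.88), and EZH2, the methylase of the Polycomb complex, rose from 26.1, 23.4 and 28.4 CPM to 36.4, 38.98 and 36.4 CPM (log2 fold change 0.53).

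Lung lineage genes were 3 higher and 3 lower of 16 (37.5% called, against 39.8% of all genes), or 5 and 3 under library totals and 6 and 2 in log2 TPM. NKX2-1, the lung lineage factor, was at 0.990, 1.44 and 1.28 CPM at 24 h and 2.65, 2.79 and 3.85 CPM at 21 days (log2 fold change 1.33), while FOXA1, a pioneer factor of lung epithelium, fell from 53.8, 44.8 and 54.1 CPM to 26.5, 21.4 and 22.4 CPM (log2 fold change -1.11). Of 8 squamous and neuroendocrine genes, 2 were lower and none higher, with 4 lower and 1 higher without DTP replicate 3 and 1 higher also without acute replicate 1, and DESeq2 called 1 higher. Both other scalings called 2 higher. POU2F3, a tuft cell factor, fell from 13.4, 13.9 and 11.8 CPM to 6.30, 7.77 and 6.36 CPM, with an adjusted p of 0.0528 in the fit of 15 libraries. ABC transporters, which pump out drugs and lipids, were 1 higher and 4 lower of 18 (27.8% called), or 2 lower without acute replicate 3. They were 3 and 3 under library totals and 6 and 3 in log2 TPM, and DESeq2 called 2 higher. ABCC3 was the member higher, by 0.47 on the log2 scale, and was not called in the fit of 15 libraries (adjusted p = 0.103). Both alkaline phosphatases tested were lower. ALPG was at 83.4, 94.7 and 80.3 CPM at 24 h and 18.7, 21.9 and 16.5 CPM at 21 days (log2 fold change -2.17, SE 0.12), and ALPP, near-identical to it, at 5112, 5876 and 5319 CPM and 4336, 4445 and 4116 CPM, a log2 fold change of -0.33 that was not called in log2 TPM or in the fit of 15 libraries. Of the lists of other cell types, fibroblast markers were 1 higher of 3 tested, or 2 without acute replicate 2 or DTP replicate 2, with 1 lower without DTP replicate 3, and DESeq2 called 2 higher. Endothelial markers were 1 higher, the receptor KDR at 2.11 on the log2 scale, and 1 lower, the adhesion protein PECAM1 at -2.09, of 5, with 2 higher under both other scalings. KDR missed a condition of the naming rule, on the mean CPM or overlap. The blood marker tested, CSF1R, did not pass (log2 fold change 0.47, adjusted p = 0.305), and without acute replicate 3 or any 1 of the 21-day libraries 1 blood marker was called lower, and DESeq2 called 1 higher and 1 lower.

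**Figure D3:**
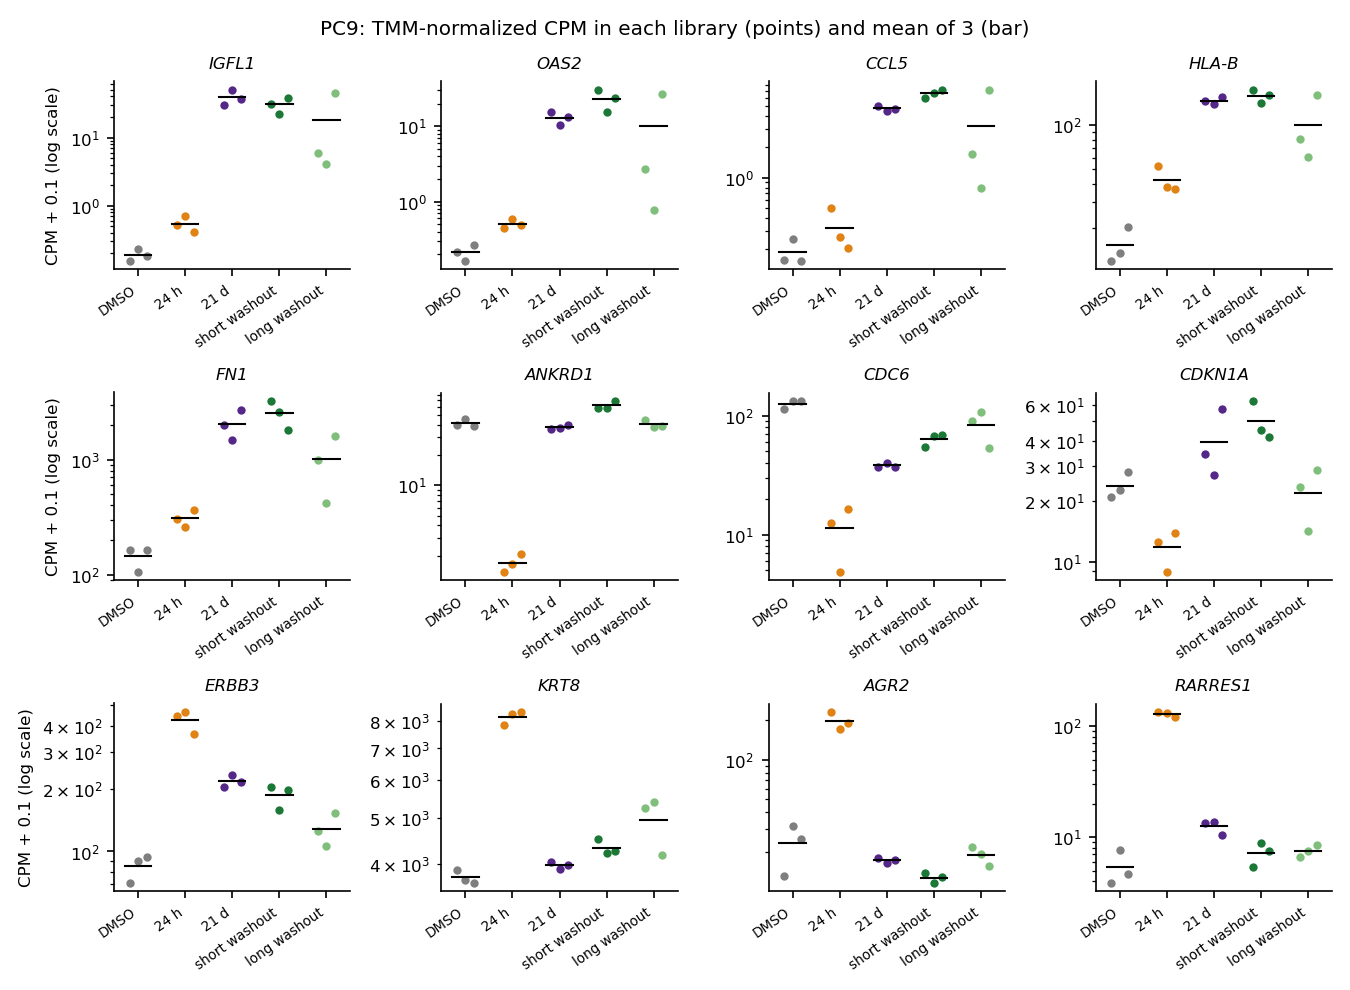
TMM-normalized CPM plus 0.1 (y axis, log scale) of 12 genes in the 15 PC9 libraries (points) with the mean of 3 (bar), by arm. IGFL1, OAS2, CCL5 and HLA-B are higher in each 21-day library than in each 24 h library, and AGR2, RARRES1, KRT8 and ERBB3 are lower.

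The other PC9 arms place these levels. They share libraries with the comparison above, so their values are set side by side and no test was made between them. The genes fell into several kinds of course. ANKRD1 stood at 39.9, 45.5 and 39.3 CPM in DMSO, close to its level at 21 days, and was low in the 24 h libraries alone among the 5 arms. ITGA6 and HBEGF were highest in DMSO, at 1124, 1062 and 1309 CPM and 56.5, 44.6 and 69.8 CPM. OAS2 was at 0.114, 0.0659 and 0.165 CPM in DMSO and IGFL1 at 0.0572, 0.132 and 0.0825 CPM, so that both were lowest in that arm. AGR2 and RARRES1 were high at 24 h, against 13.2, 31.3 and 25.2 CPM and 3.80, 7.60 and 4.54 CPM in DMSO. ERBB3 was at 70.9, 89.9 and 93.9 CPM in DMSO, the lowest of the 5 arms. RPS2 was at 2082, 1876 and 1946 CPM in DMSO, like its level at 24 h, and the ribosomal list as a whole had medians of -0.03, 0.02 and -0.03 at 24 h and -0.50, -0.56 and -0.57 at 21 days relative to the DMSO mean on the log2 scale.

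After 24 h without drug (short washout), OAS2 was at 30.2, 15.5 and 23.8 CPM and CCL5 at 5.92, 6.63 and 7.05 CPM. None of these values was below the lowest 21-day library. The replication list relative to the DMSO mean was at -1.94, -2.44 and -1.63 at 24 h, -1.17, -1.20 and -1.25 at 21 days and -0.81, -0.76 and -0.73 in the short washout, while the mitosis list was at -1.32, -1.95 and -1.40, -1.54, -1.48 and -1.56 and -1.40, -1.40 and -1.28. After 7 days without drug (long washout) the libraries disagreed: OAS2 was at 2.66, 0.676 and 26.7 CPM and IGFL1 at 5.90, 4.03 and 44.8 CPM, with replicate 3 near the levels at 21 days and in the short washout. The interferon list was at 1.38, 0.91 and 2.79 in the long washout and at 2.69, 2.48 and 2.84 at 21 days. By its profile over the most variable genes, which are not independent replicates, long washout replicate 3 correlated at 0.992 with the mean of the 21-day libraries and at 0.992 with that of the short washout. With the other long washout libraries it correlated at 0.969. Its replication list, at -0.85, was nearer to the short washout, so that it stands apart from its label without matching 1 other arm.

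**Figure D4:**
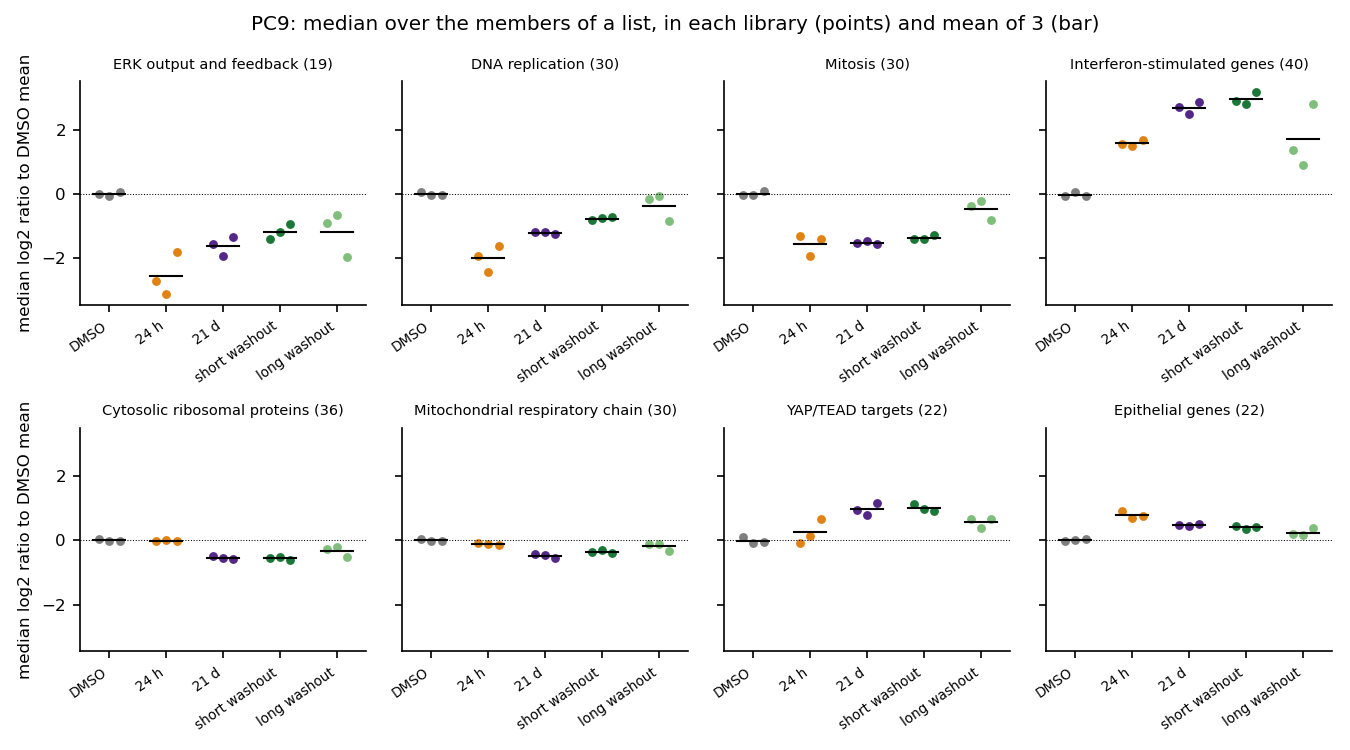
Median over the members of a list of the log2 ratio to the DMSO mean (y axis) in each of the 15 PC9 libraries (points) with the mean of 3 (bar), for 8 lists by arm. Replication genes are nearer to DMSO at 21 days than at 24 h, interferon-stimulated genes are farther from it, and replicate 3 of the long washout lies near the 21-day and short washout libraries for the interferon list.

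The same contrast was tested for a difference between PC9 and each other line, in fits of 12 libraries that share the PC9 libraries. The 21-day change differed from that of HCC827 for 3492 of 15222 genes (22.9%), with 1668 more positive in PC9 and 1824 more negative. It differed from H1975 for 4333 of 15660 genes (27.7%), with 2277 and 2056, and from HCC2935 for 4575 of 15406 (29.7%), with 2247 and 2328. Under library totals the directions were uneven, with 2478 more positive and 1210 more negative against HCC827, 3075 and 1108 against H1975 and 3559 and 1546 against HCC2935. With TMM, 673 genes differed in the same direction from all 3 lines, 333 more positive and 340 more negative in PC9. Since the fits share the PC9 libraries, some of this agreement is built in, and its size was not estimated. For interferon-stimulated genes the change was more positive in PC9 for 24 of 40 members against HCC827, 37 against H1975 and 31 against HCC2935. Within those lines alone, the list had medians of 0.03, -1.32 and -0.43. Of its 40 members, 5 were higher and 6 lower in HCC827, 2 and 29 in H1975, and 4 and 13 in HCC2935. Among all genes, 2211 were higher and 1945 lower of 14083 in HCC827. The numbers were 1673 and 2221 of 14888 in H1975, and 3148 and 2929 of 14339 in HCC2935. For cytosolic ribosomal proteins the change was more negative in PC9 for 20 of 36 members against HCC827 and 32 against H1975, but more positive for 19 against HCC2935, where the list fell further (median -0.92). Epithelial genes fell less in PC9 than in HCC827 and H1975, with 13 and 15 of 22 members more positive and 2 and 1 more negative, but against HCC2935 4 were more positive and 10 more negative. Of the collagens tested, none was more positive and 9 and 10 were more negative in PC9 against HCC827 and HCC2935, and 4 were more positive and 4 more negative against H1975.

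OAS2 shows the contrast between lines in its levels. Scaled over the 24 libraries of the 4 lines at both times, it was at 12.5, 23.8 and 16.1 CPM at 24 h in HCC827, 18.6, 39.4 and 34.2 CPM in H1975 and 9.96, 4.62 and 9.21 CPM in HCC2935. At 21 days it was at 13.99, 41.3 and 37.4, 10.3, 7.19 and 5.88 and 5.24, 5.45 and 7.74 CPM. PC9 at 24 h, at 0.373, 0.530 and 0.421 CPM, was below each of these libraries. The difference in log2 fold change was 4.13 against HCC827, 6.93 against H1975 and 5.35 against HCC2935, each called by edgeR. CCL5, with differences of 4.08, 5.97 and 4.75, was at 4.80, 4.72 and 3.41 CPM at 24 h and 3.45, 3.10 and 3.53 CPM at 21 days in HCC2935. MMP28 was at 71.6, 61.8 and 53.4 CPM at 24 h and 39.3, 53.5 and 60.3 CPM at 21 days in HCC2935. ID4 was there at 45.9, 53.03 and 24.2 CPM and 30.7, 52.2 and 37.1 CPM. For both genes the PC9 libraries at 21 days lay below each of these HCC2935 libraries. In HCC827, MMP28 was near 0, at 0.112, 0.335 and 0.188 CPM at 24 h and 0.102, 0.0978 and 0.140 CPM at 21 days. No difference from HCC827 is read for MMP28. TAC3 was at or under 0.141 CPM in the other lines and CASP14 at or under 0.382 CPM, so no fold is given there. RARRES1 was at or under 1.28 CPM in those lines. CYP24A1 was at 18.7, 27.6 and 57.6 CPM and 15.5, 9.45 and 10.5 CPM in H1975 and at 1.08, 0.726 and 0.599 CPM and 1.36, 1.55 and 1.77 CPM in HCC2935. Its differences in log2 fold change were -4.75 against HCC827, -2.25 against H1975 and -4.74 against HCC2935.

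**Figure D5:**
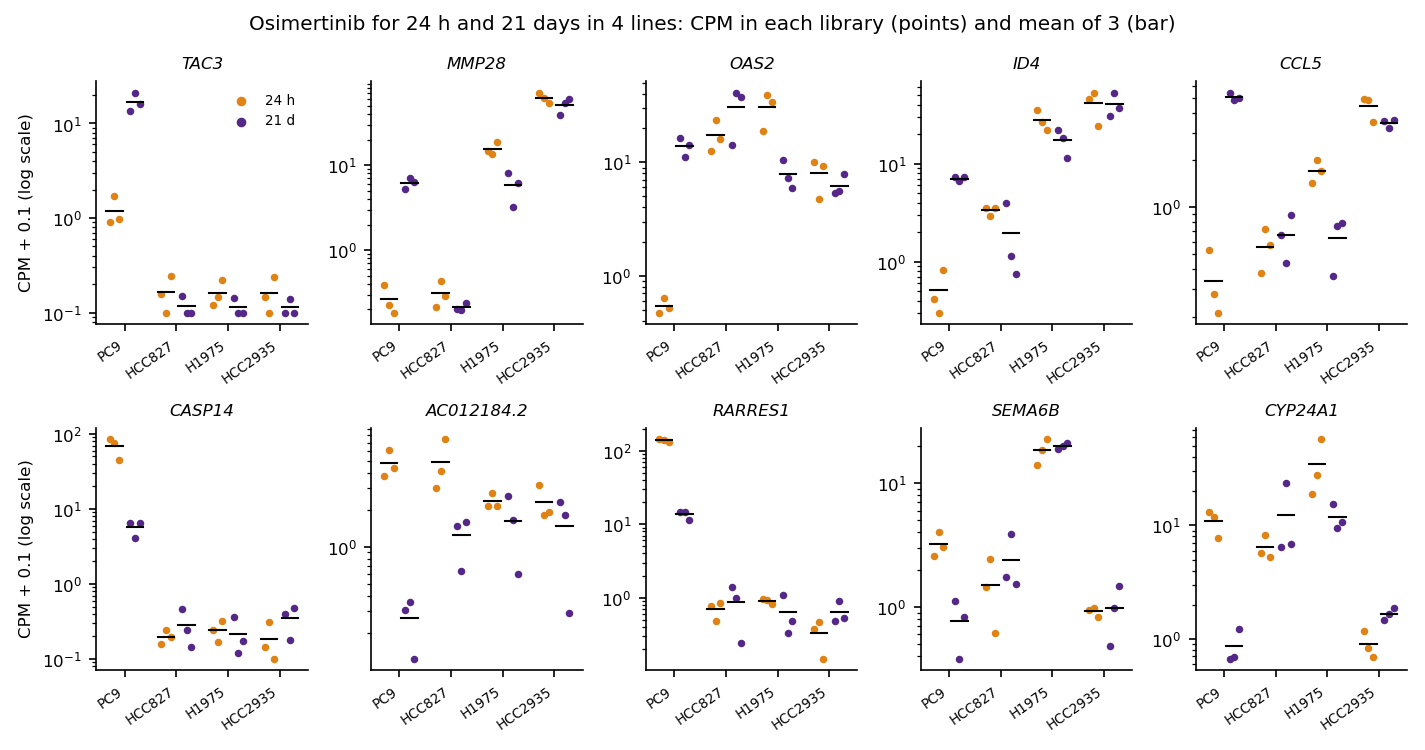
CPM plus 0.1 (y axis, log scale) of 10 genes in each library of 4 lines at 24 h and at 21 days (points). Bars give the mean of 3. The 21-day change was called more positive (5) or more negative (5) in PC9 than in each other line. TAC3 and CASP14 are near 0 in the other lines, so no difference between lines is read from their calls. MMP28 is near 0 in HCC827, so no difference from that line is read for it. OAS2 is lower in PC9 at 24 h than in any other library shown.

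Some named genes changed in the same direction in each line. INHBA had log2 fold changes of 3.82, 3.72 and 4.70 in HCC827, H1975 and HCC2935 alone, beside 1.97 in PC9. ERBB3 had -2.28, -4.72 and -1.62 beside -0.96, and PSMB10 -1.36, -1.11 and -1.16 beside -0.56. CDC6 had 1.53, 0.59 and 2.41 beside 1.78, and its value in H1975 did not pass the test. EGFR did not share a direction, with -0.50, -0.60 and 1.38 beside 0.45. Of 171 named genes found in GENCODE release 29, 86 overlap a gene on the opposite strand and 50 a gene on the same strand.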

How the data were processed

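RNA-Seq libraries of PC9, HCC827, H1975 and HCC2935 cells were read from the deposited gene tables. The submitters' processing notes name HISAT2 2.1.0, Salmon 0.8.2 and hg38 without stating their roles. The authors deposited estimated counts per gene, here rounded to whole numbers, and log2 TPM values, used as they were deposited. The PC9 libraries at 21 days and 24 h (biological triplicates) were compared with edgeR 4.0.16 (quasi-likelihood F-test, TMM factors, filterByExpr, Benjamini-Hochberg), called at an adjusted p under 0.05, in R 4.3.3, with tables made in Python 3.11.15. Differences between lines are the interaction of line and arm in 12 libraries. TMM-normalized CPM are scaled over the 15 PC9 libraries and, between lines, over the 24 libraries at both times. Alternatives were DESeq2 1.42.0, limma 3.58.1 on log2 TPM, other scalings, filters and thresholds, all PC9 libraries in 1 fit, a replicate block and leaving out each library. Named genes are the 12 highest and 12 lowest log2 fold changes, and up to 2 per list and direction. Both sets needed a call, a mean of at least 1 CPM and no overlap between the groups. Added to them were 5 genes per direction with such a mean that differed from 3 lines, and 29 genes of the field, 16 of them called. The members and 42 lists were chosen with earlier results of these data known.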

Additional observations from a re-analysis of the deposited data

Results flagged for a closer look

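The change from 24 h to 21 days differed between lines by a test of the difference itself, for 3492 genes between PC9 and HCC827, 4333 between PC9 and H1975 and 4575 between PC9 and HCC2935. Of the genes that differed from all 3 lines in the same direction, 5 per direction were taken by the smallest of their 3 differences in log2 fold change. More positive in PC9 were MMP28 (5.49), OAS2 (4.13), ID4 (4.12) and CCL5 (4.08). More negative in PC9 were AC012184.2 (by 2.77), RARRES1 (by 2.76), SEMA6B (by 2.28) and CYP24A1 (by 2.25). The rule also took TAC3 as more positive (fitted value 5.72) and CASP14 as more negative (fitted value 3.31, by size). In the other lines TAC3 was at or under 0.141 CPM and CASP14 at or under 0.382 CPM. The fitted values of TAC3 and CASP14 compare PC9 with changes at near 0 counts in those lines. Such changes could not be measured, so no difference between lines is read from these values. MMP28 was at or under 0.335 CPM in HCC827, so no difference from that line is read for it either. CCL5 in HCC827 and RARRES1 in HCC2935 were at or under 0.791 and 0.796 CPM, so their differences from those lines rest on low levels. The source of these differences was not tested.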

How the results depend on the processing

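The count of 5760 genes called between 24 h and 21 days was 6139 by DESeq2, 5760 with RLE factors, 6140 with library totals, 7196 for limma on log2 TPM, 5648 without a filter, 5592 with at least 10 counts in each library, 5036 in a fit of all 15 PC9 libraries, and 4543 to 5218 without 1 library. At an adjusted p under 0.01 it was 3467, as the threshold alone requires fewer. The differences between lines at that threshold were 1605 genes for HCC827, 2266 for H1975 and 2575 for HCC2935, and without 1 library they were 2672 to 4711, 3453 to 4957 and 3737 to 4416. A replicate block gave 5433 calls (2656 higher, 2777 lower), and 3135, 3922 and 4105 differences. Same-numbered libraries of PC9 correlated at -0.04, 0.10 and 0.11 in their deviations, and not every library correlated best with its own number, so the numbers are not taken as pairs. Of 171 named genes tested, 8 changed sign in some setting, and the cause was not tested: STAT3 (-0.23 at first, 0.0299 in log2 TPM), ERBB2 (0.00194 with library totals, 0.13 in log2 TPM), MKI67 (0.11 in log2 TPM), ZEB1 (0.0664 with library totals, 0.22 in log2 TPM, -0.32 to 0.30 without 1 library), CDH1 (0.0232 and 0.15), IGF1R (-0.75 to 0.0797 without 1 library), FGFR1 (-0.0333 to 0.10) and KDM5A (-0.11 to 0.12). STAT3 is the only one of them called by edgeR. With 3 libraries per group, the variance between replicates was 17.5 to 32.2 times that of counting alone, and genes under the filter stay unmeasured.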
